A study of Mus musculus with 10 samples.

Results

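The CC chemokine ligands are small secreted proteins that draw leukocytes out of the blood and into inflamed tissue. The 10 described here, Ccl2, Ccl3, Ccl4, Ccl5, Ccl6, Ccl7, Ccl9, Ccl12, Ccl17 and Ccl22, were taken by symbol from the 34745 genes of a table of messenger RNA counts, and all 10 had enough reads to be tested. The cells came from peritoneal lavage, a rinse of the abdominal cavity, in mice made septic by cecal ligation and puncture (CLP), an operation that lets gut bacteria into the peritoneum. Of 10 libraries, 5 are labelled AX (replicates 6 to 10) and 5 are labelled NC (replicates 1 to 5). Here AX is taken to mean amlexanox and NC vehicle because the design text names these 2 treatments, although the labels spell out neither abbreviation. Amlexanox is an anti-inflammatory drug that inhibits TBK1 and IKKε, kinases of innate immune signalling. All the mice underwent CLP, so the comparison is between drug-treated and vehicle-treated septic mice and holds no group without sepsis. The sources used here do not give strain, sex, age, dose or time. The labels do not tie the samples to separate animals, and p-values therefore measure the spread between these samples, some or all of which may be technical.

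CC chemokines carry 2 neighbouring cysteines near the amino terminus and act on G protein-coupled receptors named CCR. Activated macrophages, neutrophils and mesothelial cells of the peritoneum release them after contact with bacteria, and the receptors on monocytes, neutrophils and lymphocytes turn the gradient into directed migration. In this cavity they are known for the recruitment of monocytes that follows the first wave of neutrophils.

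No difference between AX and NC passed the test for any of the 10 ligands, and the AX and NC libraries overlapped for all 10. What varied was the level from library to library, by 3.08-fold to 9.68-fold between the lowest and the highest of the 10 libraries. Some of that variation was shared between genes: Ccl2, Ccl3 and Ccl4 were high together, and Ccl6 and Ccl9 were high together. Each pair within these sets passed after adjustment over the 10 libraries, but none did without AX 6 and NC 1. Ccl7, Ccl12, Ccl17 and Ccl22 each had their highest level in the library AX 8, but no pair of these 4 was correlated after adjustment.

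Total counts ran from 11080315 to 13492495 in AX libraries and from 10221170 to 13806885 in NC libraries, and 11865 to 12851 genes had at least 10 counts. Levels are given as CPM, the usual unit of counts relative to library size, here after TMM scaling of that size. The labelled cells were checked against marker genes. Summed markers of neutrophils reached 9159 to 17410 CPM in AX libraries and 10686 to 21429 CPM in NC libraries. Those of monocytes and small macrophages reached 4449 to 8572 CPM in AX libraries and 5115 to 10459 CPM in NC libraries. Much of this second sum came from the single gene Hp, with means of 3536 CPM in AX and 4938 CPM in NC. All 14 genes of a mesothelial list and all 11 of a gut epithelial list had reads as well, and the libraries AX 6 and NC 1 were highest in both. The mesothelial sum was 2942 CPM in AX 6 and 1199 CPM in NC 1, against 151.4 to 456.7 CPM in the other 8 libraries. The gut epithelial sum was 585.3 CPM in AX 6 and 1057 CPM in NC 1, against 19.14 to 460.2 CPM in the others. Libraries of this kind are bulk samples, in which fewer cells of a type and less RNA per cell cannot be told apart.

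The genes of 8 ligands lie within 1629 kb of chromosome 11 and those of Ccl22 and Ccl17 within 66 kb of chromosome 8, in the coordinates of the deposited table on mm10. In GENCODE M21 no gene on the same strand overlaps any of the 10. On the opposite strand, Gm17268 overlaps Ccl2 and had 0 counts in every library, and E230016K23Rik overlaps Ccl6 and had 3 to 43 counts. The longest stretch that annotated transcripts of 2 members share exactly is 25 bases, in Ccl6 and Ccl9.

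Ccl2, Ccl7 and Ccl12 encode the monocyte chemoattractants that act mainly through CCR2. Ccl2 (ENSMUSG00000035385, chromosome 11, 82035571 to 82037453, plus strand) had 872.7, 658.9, 643.1, 606.0 and 249.3 CPM in the AX libraries 6 to 10, against 959.3, 571.9, 815.6, 581.5 and 618.8 CPM in the NC libraries 1 to 5. AX 10 lay below every NC library and the other 4 AX libraries lay inside the NC range. Ccl2 averaged 606.0 ± 225.0 CPM in AX libraries and 709.4 ± 171.2 CPM in NC libraries (SD, n = 5 each), with a log2 fold change of -0.23 (SE 0.30, 95% interval -0.89 to 0.44) and an adjusted p of 0.9999 by edgeR's quasi-likelihood test.

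Ccl7 (ENSMUSG00000035373, chromosome 11, 82045712 to 82047525, plus strand) is the nearest neighbour of Ccl2 among the members. Its level was 671.7, 714.6, 2154, 413.6 and 316.9 CPM in AX 6 to AX 10, against 1043, 247.0, 927.9, 666.5 and 1191 CPM in NC 1 to NC 5. AX 8 stood above all other libraries, and the other 4 AX libraries lay within the NC range. The means of Ccl7 were 854.3 ± 746.0 CPM in AX and 815.2 ± 371.2 CPM in NC, the log2 fold change was 0.07 (SE 0.54, 95% interval -1.13 to 1.27), and without AX 8 it was -0.64.

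The third gene of this role, Ccl12 (ENSMUSG00000035352, chromosome 11, 82101845 to 82103400, plus strand), had 11.88, 23.10, 37.28, 23.76 and 8.92 CPM in AX 6 to AX 10, against 27.89, 13.39, 18.14, 21.12 and 35.16 CPM in NC 1 to NC 5. AX 8 was again the highest library, and AX 6 and AX 10 lay below every NC library. Ccl12 averaged 20.99 ± 11.25 CPM in AX and 23.14 ± 8.53 CPM in NC (log2 fold change -0.14, SE 0.39, 95% interval -1.01 to 0.73). Ccl7 and Ccl2 did not keep a fixed ratio. Deposited FPKM is a level per length in which overlapping exons of Ccl2 are counted more than once, which lowers the value of Ccl2. On that scale Ccl7 was 7.98 times Ccl2 in AX 8 and 1.63 to 3.03 times in the other AX libraries. In NC libraries it was 1.03 to 4.59 times. With overlapping exons counted once, Ccl7 was above Ccl2 in 8 of 10 libraries. It was below in AX 9 (516.4 against 532.5 CPM per kilobase) and NC 2 (308.4 against 502.6). In AX 8 the levels were 2690 and 565.1.

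Ccl3 and Ccl4, inflammatory chemokines of activated macrophages, of which Ccl3 acts on CCR1, had the highest mean levels of the 10 ligands in both groups, per length as well as in CPM. Ccl3 (ENSMUSG00000000982, chromosome 11, 83647844 to 83649355, minus strand) had 4666, 2871, 2769, 1821 and 942.7 CPM in AX 6 to AX 10, against 2830, 1544, 4790, 3076 and 1406 CPM in NC 1 to NC 5. Ccl4 (ENSMUSG00000018930, chromosome 11, 83662584 to 83664683, plus strand) had 4493, 2533, 4245, 1506 and 744.1 CPM in AX 6 to AX 10, against 4771, 1476, 7199, 2754 and 2033 CPM in NC 1 to NC 5. For both genes NC 3 was the highest library and AX 10 the lowest, and AX 10 was the single AX library outside the NC range. Ccl3 averaged 2614 ± 1390 CPM in AX and 2729 ± 1372 CPM in NC, and its log2 fold change was -0.06 (SE 0.45, 95% interval -1.04 to 0.92). Ccl4 averaged 2704 ± 1649 CPM in AX and 3647 ± 2345 CPM in NC, and its log2 fold change was -0.43 (SE 0.55, 95% interval -1.63 to 0.77). Of the reads of the 10 ligands, Ccl3 and Ccl4 took 33.9% to 79.2% in AX libraries and 41.9% to 76.3% in NC libraries.

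Ccl5 (ENSMUSG00000035042, chromosome 11, 83525778 to 83530518, minus strand), a chemokine of T cells, NK cells and macrophages that also binds CCR1, had 145.1, 58.24, 117.7, 121.1 and 47.05 CPM in AX 6 to AX 10, against 116.4, 65.84, 70.99, 80.96 and 87.12 CPM in NC 1 to NC 5. The AX libraries fell on both sides of NC, with 3 above every NC library and 2 below every one. Its mean was 97.84 ± 42.78 CPM in AX and 84.27 ± 19.80 CPM in NC. The log2 fold change of 0.22 (SE 0.31, 95% interval -0.47 to 0.91) was the largest positive one among the 10 ligands and did not pass the test. Summed T cell markers ran from 31.72 CPM (AX 10) to 71.21 CPM (AX 8) among AX libraries, with 71.09 CPM in AX 6, and from 42.40 to 83.51 CPM among NC libraries. Summed NK cell markers ran from 13.49 CPM (AX 7) to 38.95 CPM (AX 8) among AX libraries and from 12.09 to 35.96 CPM among NC libraries. They were 14.57 CPM in AX 6, the library highest in Ccl5, and 21.66 CPM in AX 10, the lowest. The part of these cells in the level of Ccl5 was not tested.

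**Figure D1:**
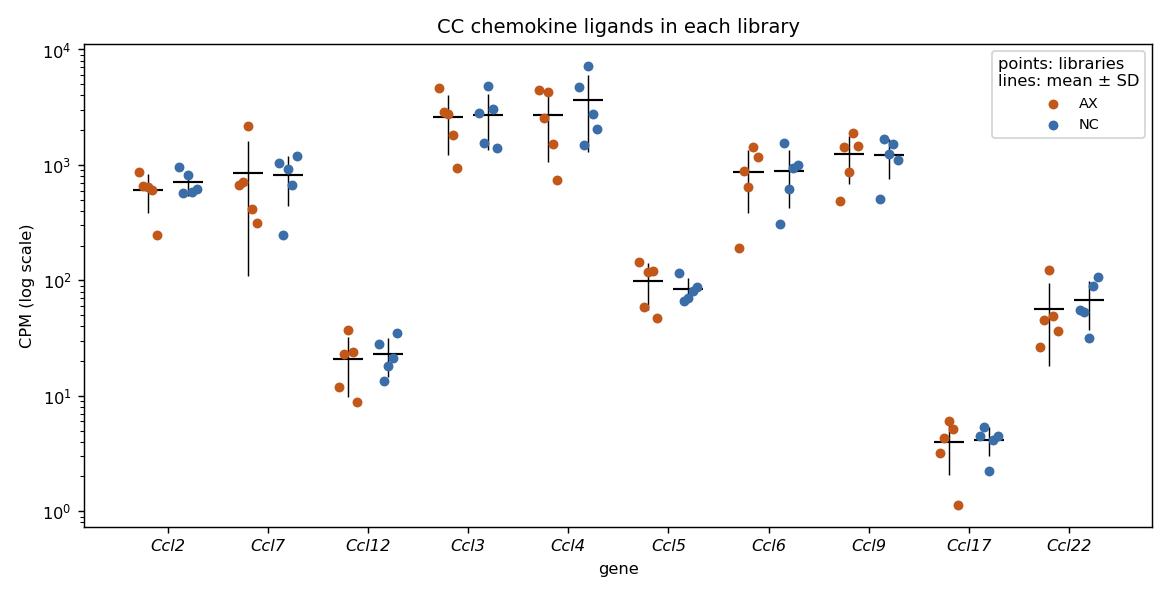
Level of each CC chemokine ligand in every library, in CPM on a log axis. Each point is a library, AX in orange left of NC in blue, with libraries in replicate order, and the black lines give the mean and SD of 5 libraries; the AX and NC points overlap for all 10 genes.

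Ccl6 and Ccl9 encode mouse chemokines of the CCR1 branch of the family and are typically expressed by macrophages and other myeloid cells. Their genes are neighbours on the minus strand of chromosome 11, Ccl6 (ENSMUSG00000018927) at 83587882 to 83593087 and Ccl9 (ENSMUSG00000019122) at 83572919 to 83578636. The bases before their starts are shown because, of all 45 pairs, these genes had the most similar profiles over the libraries. The windows are from RefSeq on build GRCm38.p6, minus strand, and cover the 250 bases before the start, chr11:83593088-83593337 for Ccl6 and chr11:83578637-83578886 for Ccl9. Capitals mark bases that are identical in a local alignment of the pair.
Ccl6: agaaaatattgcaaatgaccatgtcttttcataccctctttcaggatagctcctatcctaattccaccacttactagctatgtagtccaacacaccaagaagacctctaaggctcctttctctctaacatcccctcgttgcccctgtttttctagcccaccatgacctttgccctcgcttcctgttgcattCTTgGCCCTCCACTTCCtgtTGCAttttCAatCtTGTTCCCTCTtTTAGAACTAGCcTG
Ccl9: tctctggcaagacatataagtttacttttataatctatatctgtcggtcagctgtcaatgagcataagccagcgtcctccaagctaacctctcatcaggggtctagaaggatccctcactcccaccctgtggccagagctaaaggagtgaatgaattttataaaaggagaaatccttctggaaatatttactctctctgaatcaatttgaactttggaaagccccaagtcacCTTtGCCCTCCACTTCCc
The alignment was made over windows that reach 50 bases past the start. It held 59 identical bases in 74 columns (79.7%), from base -59 to base 15 of Ccl6 and from base -18 to base 49 of Ccl9, counted from the start. Its score was 41, against at most 15 for the other 14 pairs of the 6 members with a RefSeq window. Most of the shared stretch thus lies upstream of the start in Ccl6 and past the start in Ccl9.

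Motifs were searched on both strands of the 250 bases before the start in those 6 members. A match to the NF-kB motif was found in Ccl9 and in 7.25% of 32851 windows. TGANTCA, a loose form of the AP-1 motif with any base in the middle, was in Ccl9 (as TGAATCA) and in 6.75% of windows. The window of Ccl17 held the palindrome TTC and GAA with 4 bases between them, the form bound by STAT6, which 5.85% of windows hold. The PU.1 core GAGGAA was in Ccl3, Ccl12 and Ccl17 and in 23.3% of windows, and GAAA repeated after 2 bases, an interferon response motif, was in none of the 6 and in 2.98% of windows. A match is a description of the letters and not evidence of binding.

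Ccl6 had 190.0, 883.9, 638.3, 1425 and 1167 CPM in AX 6 to AX 10, against 306.6, 1539, 621.6, 938.8 and 993.9 CPM in NC 1 to NC 5. Ccl9 had 484.6, 1441, 872.9, 1902 and 1461 CPM in AX 6 to AX 10, against 505.0, 1692, 1241, 1504 and 1108 CPM in NC 1 to NC 5. For both, AX 6 was the lowest library and NC 1 the next lowest, and the remaining AX and NC libraries were interspersed. Ccl6 averaged 860.7 ± 477.3 CPM in AX and 879.9 ± 459.9 CPM in NC (log2 fold change -0.03, SE 0.51, 95% interval -1.16 to 1.10). Ccl9 averaged 1232 ± 555.1 CPM in AX and 1210 ± 454.8 CPM in NC (log2 fold change 0.03, SE 0.39, 95% interval -0.84 to 0.89). The pair took 5.83% to 52.8% of the ligands' reads in AX libraries and 7.64% to 44.8% in NC libraries, the smallest share in each group being that of AX 6 and NC 1.

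Ccl17 and Ccl22 are the ligands of CCR4, known from dendritic cells and alternatively activated macrophages and as attractants of Th2 and regulatory T cells. Ccl22 (ENSMUSG00000031779, chromosome 8, 94745590 to 94751699, plus strand) had 26.62, 45.64, 122.2, 49.56 and 36.42 CPM in AX 6 to AX 10, against 55.44, 52.78, 31.63, 89.64 and 107.3 CPM in NC 1 to NC 5. AX 8 was the highest library, AX 6 the lowest, and the other 3 AX libraries lay within the NC range. Its mean was 56.08 ± 37.99 CPM in AX and 67.35 ± 30.50 CPM in NC (log2 fold change -0.26, SE 0.44, 95% interval -1.23 to 0.70). Without AX 8 the log2 fold change of Ccl22 was -0.77.

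Ccl17 (ENSMUSG00000031780, chromosome 8, 94810453 to 94812035, plus strand) was the least abundant member and the most limited by depth. It had 37, 53, 58, 78 and 14 counts in AX 6 to AX 10, against 52, 84, 24, 51 and 50 counts in NC 1 to NC 5. In CPM this was 3.21, 4.28, 6.06, 5.12 and 1.14 in the AX libraries, against 4.49, 5.38, 2.23, 4.17 and 4.496 in the NC libraries. AX 10 lay below every other library and AX 8 above. Ccl17 averaged 3.96 ± 1.90 CPM in AX and 4.16 ± 1.17 CPM in NC (log2 fold change -0.07, SE 0.41, 95% interval -0.98 to 0.84). CCR4 transcripts were close to absent, with 3, 0, 0, 8 and 0 counts of Ccr4 in AX 6 to AX 10, against 1, 4, 0, 0 and 1 in NC 1 to NC 5. Summed markers of conventional dendritic cells were 75.60 CPM (AX 10) to 110.7 CPM (AX 6) in AX libraries, with 84.16 CPM in AX 8. In NC libraries they were 42.80 CPM (NC 3) to 132.9 CPM (NC 5). Their part in the levels of Ccl17 and Ccl22 was not tested.

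Tested across all 12264 genes that passed the filter on low counts, 0 of the 10 ligands had an adjusted p under 0.05 with edgeR, where 0.00% of all genes did, and the adjusted p of each ligand was 0.9999. At an unadjusted p under 0.05 the ligands again counted 0 of 10, beside 0.921% of all genes (113 of 12264). The count over all genes was 381 without AX 6 and 433 without NC 1, and 0 of the ligands were among them. DESeq2 and limma-voom likewise called 0 ligands, adjusted or at an unadjusted p under 0.05. Groups that did not overlap were found for 0 of the 10 ligands, beside 0.139% of all genes. Among the 10, 3 had a positive and 7 a negative estimate, with a median log2 fold change of -0.07, beside 6574 positive and 5690 negative estimates and a median of 0.02 over all genes tested. Without AX 6 or without AX 10 the split was 5 positive and 5 negative. Under scaling to total counts only, Ccl7 moved to the negative side at -0.04.

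The 95% intervals were wide. The narrowest, that of Ccl2, ran from 0.540-fold to 1.35-fold of the NC level, and that of Ccl5 from 0.720-fold to 1.87-fold. The widest was that of Ccl4, from 0.322-fold to 1.71-fold, with Ccl7 at 0.457-fold to 2.40-fold and Ccl6 at 0.447-fold to 2.14-fold. The summed level of all 10 ligands was 11565, 9233, 11607, 7873 and 4974 CPM in AX 6 to AX 10, against 10620, 7206, 15718, 9718 and 7585 CPM in NC 1 to NC 5. AX 10 was the lowest and NC 3 the highest, and the ligands made up 0.497% to 1.16% of scaled counts in AX libraries and 0.721% to 1.57% in NC libraries.

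**Figure D2:**
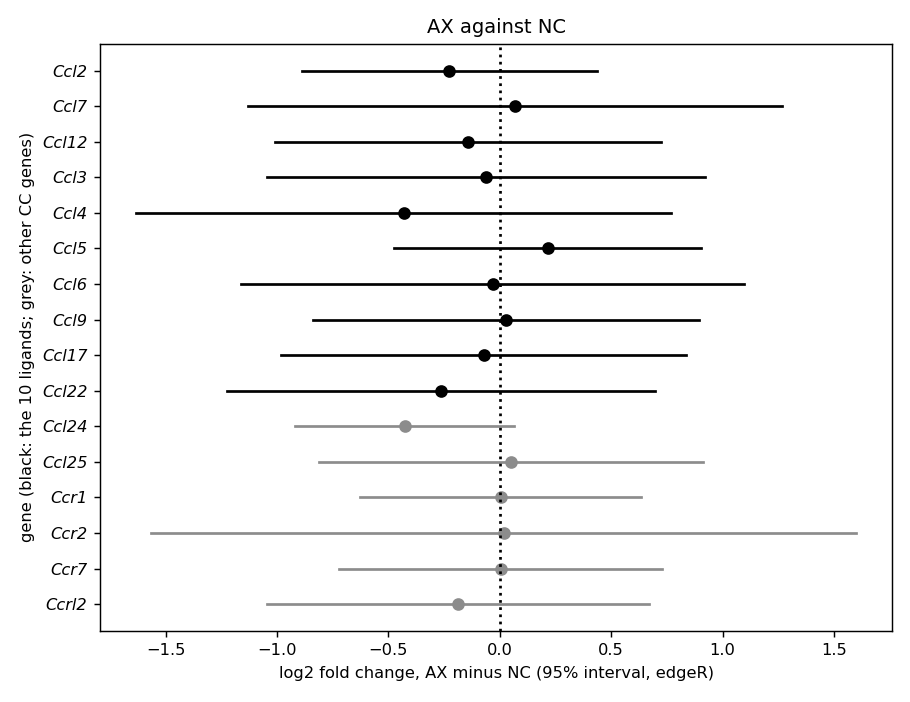
Log2 fold change of AX over NC for the 10 ligands (black) and for 2 other CC ligands, 3 CC receptors and Ccrl2 (grey), with the 95% interval from edgeR as a line. Every interval crosses the dotted line at 0.

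Compared per length, the ligands spanned a wide range. In the deposited FPKM (reads relative to gene length and library total) the medians over the 10 libraries were 4039 for Ccl4, 3516 for Ccl3 and 871.6 for Ccl7. Next came 393.8 for Ccl9, 361.1 for Ccl6 and 348.6 for Ccl2, then 67.98 for Ccl5, 24.85 for Ccl12, 23.12 for Ccl22 and 8.58 for Ccl17. Some neighbours in this order did not separate. Ccl4 was above Ccl3 in 8 of 10 libraries, Ccl7 above Ccl9 in 7, Ccl9 above Ccl6 in 7, Ccl6 above Ccl2 in 6 and Ccl12 above Ccl22 in 5. Ccl3 was above Ccl7, Ccl2 above Ccl5, Ccl5 above Ccl12 and Ccl22 above Ccl17 in all 10 libraries.

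The gene length behind the deposited FPKM matched the summed length of all distinct annotated exons, with overlapping exons counted more than once, for all 10 ligands in GENCODE M21, exactly for 9 and within 1 base for Ccl17. This made the length of Ccl2 and of Ccl12 1.68 times the merged exon length and that of Ccl6 1.42 times. Per kilobase of merged exons the medians were 4006 CPM for Ccl4, 3655 for Ccl3, 865.3 for Ccl7, 554.4 for Ccl2, 507.7 for Ccl6 and 440.3 for Ccl9. On this scale Ccl2 moved ahead of Ccl6, although it was above it in only 5 of 10 libraries, and Ccl6 moved ahead of Ccl9, above it in 8. Ccl12, at a median of 41.18 CPM per kilobase, was above Ccl22, at 22.01, in all 10. The order of the other members was the same on both scales.

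**Figure D3:**
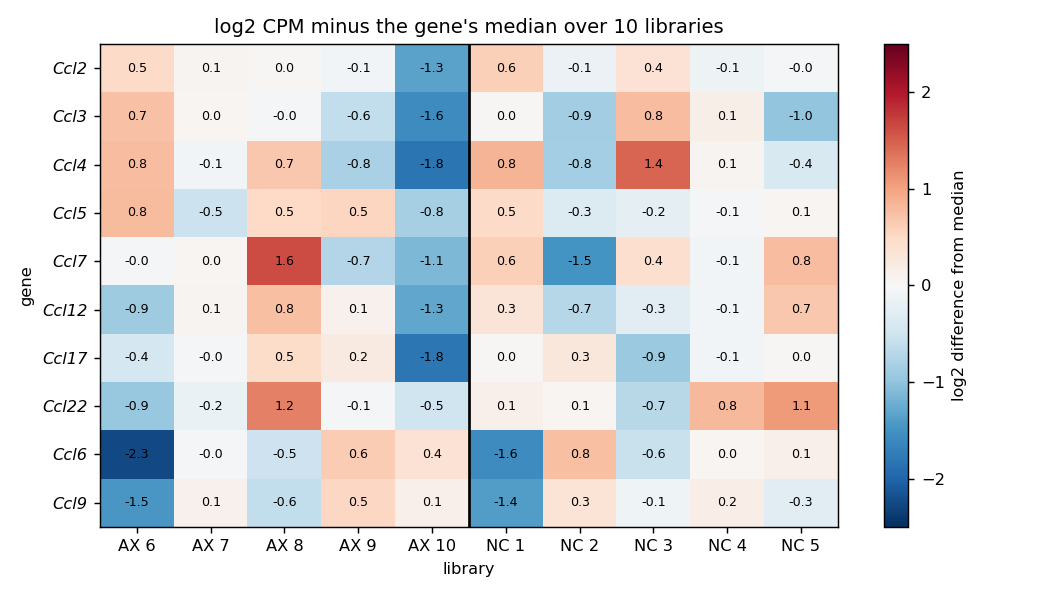
Log2 CPM of each ligand in each library minus that gene's median over the 10 libraries, AX on the left of the black line and NC on the right. Red is above and blue below the median; Ccl6 and Ccl9 are low in AX 6 and NC 1, and most other ligands are low in AX 10.

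The libraries differed as wholes. AX 10 was the lowest library for 6 ligands (Ccl2, Ccl3, Ccl4, Ccl5, Ccl12 and Ccl17) and among the lowest 3 for 8 of the 10. AX 8 was the highest for 4 (Ccl7, Ccl12, Ccl17 and Ccl22), AX 6 was the lowest for 3 (Ccl6, Ccl9 and Ccl22), and NC 3 was the highest for Ccl3 and Ccl4. Mitochondrial transcripts made up 12.1%, 8.46%, 18.6%, 6.35% and 20.1% of counts in AX 6 to AX 10, against 8.74%, 4.47%, 7.16%, 12.6% and 15.7% in NC 1 to NC 5. AX 10 and AX 8 had the highest shares, and these are the libraries lowest and highest for several ligands. The part of RNA quality in these levels was not tested.

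Levels of the ligands were then compared with each other over the 10 libraries, as Pearson correlations of log2 CPM for all 45 pairs with permutation p-values adjusted over the 45. All points share the scaling of their library and the mixture of cells in it. The adjusted p was under 0.05 for 4 pairs, each positive. The share among pairs of other genes was not examined, so this count does not set the ligands apart. Ccl6 and Ccl9 had r = 0.95 (permutation p = 0.00015, adjusted p = 0.00675; Spearman's rho 0.87, permutation p = 0.00217, adjusted p = 0.0247), and without AX 6 and NC 1, the libraries farthest from the median, r was 0.79 with an adjusted permutation p of 0.093. Ccl3 and Ccl4 had r = 0.91 (permutation p = 0.00055, adjusted p = 0.0118; rho 0.83, permutation p = 0.00477, adjusted p = 0.0429), and r = 0.88 without AX 10 and NC 5.

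The level of Ccl2 went with these. It had r = 0.86 with Ccl4 (permutation p = 0.00079, adjusted p = 0.0118; rho 0.87, permutation p = 0.0022, adjusted p = 0.0247) and r = 0.79 with Ccl3 (permutation p = 0.00324, adjusted p = 0.0364; rho 0.66, permutation p = 0.0444, adjusted p = 0.143). Without AX 10 and NC 1 these were 0.80 and 0.81. With 8 libraries left, the adjusted permutation p of none of the 4 pairs was under 0.05 (0.0897 to 0.093), with r at 0.79 to 0.88. Under scaling to total counts only, with all 10 libraries, Ccl2 had r = 0.80 with Ccl4 and 0.76 with Ccl3. Neither then passed (adjusted permutation p = 0.0997 for each).

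Ccl6 and Ccl9 had negative r with Ccl2, Ccl3 and Ccl4, and none of these passed by Pearson r over the 10 libraries. Ccl4 and Ccl6 had r = -0.71 (permutation p = 0.0188, adjusted p = 0.105) and rho = -0.90 (permutation p = 0.00099, adjusted p = 0.0223), and r = -0.89 without AX 10 and NC 3 (adjusted permutation p = 0.0402). Ccl2 and Ccl6 had r = -0.63 (permutation p = 0.0624, adjusted p = 0.192) and rho = -0.89 (permutation p = 0.00099, adjusted p = 0.0223), and r = -0.87 without AX 10 and NC 1 (adjusted permutation p = 0.0402). Ccl3 and Ccl6 had r = -0.69 (permutation p = 0.0256, adjusted p = 0.105) and rho = -0.73 (permutation p = 0.0205, adjusted p = 0.102), and r = -0.74 without AX 10 and NC 5. With Ccl9, r was -0.57 for Ccl2, -0.49 for Ccl3 and -0.61 for Ccl4 (adjusted permutation p = 0.25, 0.285 and 0.192). No single library set the sign for Ccl4 and Ccl6, whose r was -0.77 without AX 6, -0.76 without AX 10 and -0.78 without NC 3.

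The 6 pairs among Ccl7, Ccl12, Ccl17 and Ccl22, the genes with their highest level in AX 8, had r from 0.33 to 0.77, and none passed after adjustment. Ccl7 and Ccl12 had r = 0.77 (permutation p = 0.00905, adjusted p = 0.0814; rho 0.76, permutation p = 0.0147, adjusted p = 0.0829), with r = 0.69 without AX 8 and NC 2. Ccl12 and Ccl22 had r = 0.76 (permutation p = 0.0114, adjusted p = 0.0856; rho 0.78, permutation p = 0.0103, adjusted p = 0.0664), with r = 0.67 without AX 6 and AX 10. The CCR4 ligands Ccl17 and Ccl22, which are neighbours on chromosome 8, had r = 0.60 (permutation p = 0.0605, adjusted p = 0.192; rho 0.71, permutation p = 0.0265, adjusted p = 0.108), with r = 0.61 without AX 10 and NC 3. Ccl12 and Ccl17 had r = 0.71 (permutation p = 0.0178, adjusted p = 0.105), which was 0.32 without AX 6 and AX 10. Ccl7 had r = 0.33 with Ccl17 and 0.51 with Ccl22 (adjusted permutation p = 0.498 and 0.266), below its r of 0.70 with Ccl4 (adjusted permutation p = 0.105). Ccl2 and Ccl7, which act on the same receptor, had r = 0.51 (permutation p = 0.136, adjusted p = 0.266; rho 0.65, permutation p = 0.0488, adjusted p = 0.146), and r = 0.26 without AX 10 and NC 1.

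**Figure D4:**
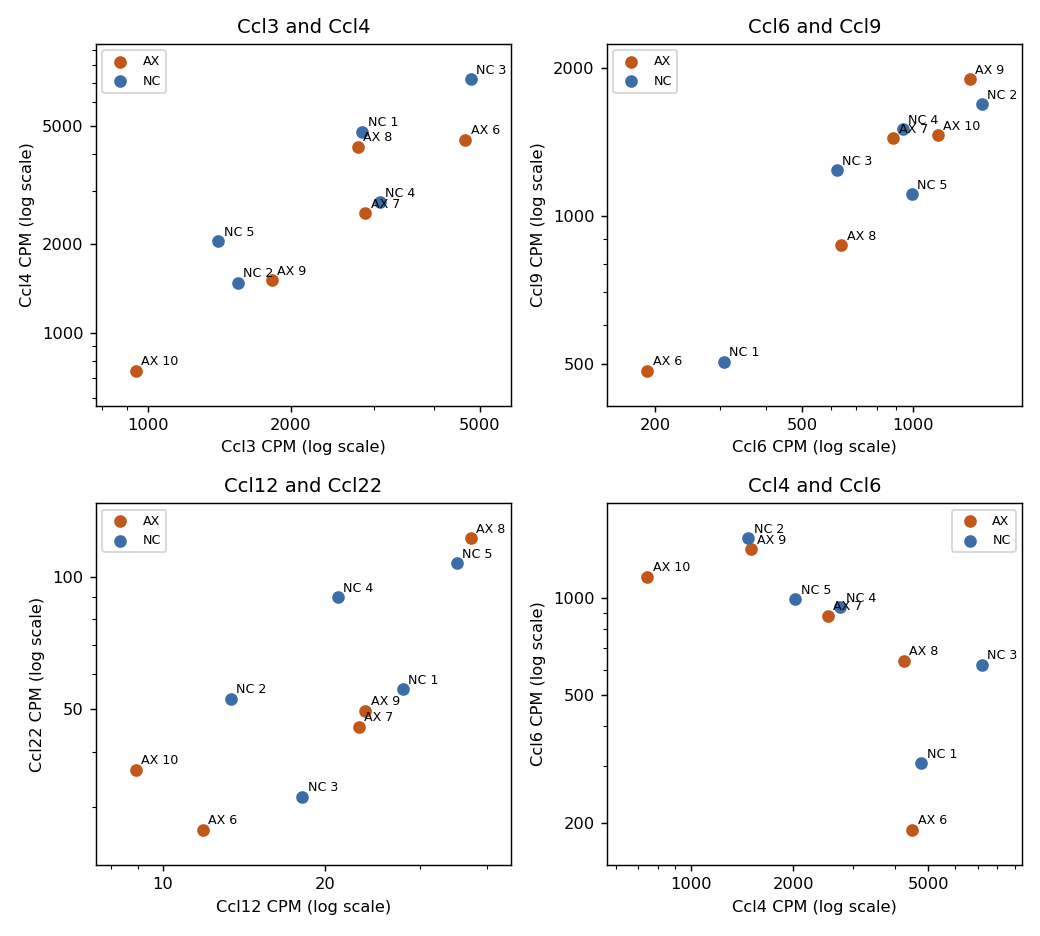
Levels of 4 pairs of ligands in the 10 libraries, in CPM on log axes, with AX in orange and NC in blue. Ccl3 with Ccl4 and Ccl6 with Ccl9 run upwards with AX and NC mixed along the line, Ccl12 with Ccl22 runs upwards more loosely, and Ccl4 with Ccl6 runs downwards.

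Genes outside the family with the most similar profiles were found by Pearson r of log2 CPM over the 10 libraries, among 7691 genes. The closest to Ccl3 were Ier3, an immediate early gene (r = 0.962, 1147 to 3097 CPM), and Cxcl2, a neutrophil-attracting CXC chemokine (r = 0.949, 1797 to 14661 CPM), both lowest in AX 10 and highest in AX 6. Ccl4 was closest to Cblb, a ubiquitin ligase (r = 0.950, 46.08 to 55.05 CPM), and Tes (r = 0.948, 108.9 to 241.6 CPM). Both varied by smaller factors than Ccl4 (744.1 to 7199 CPM), and r does not depend on the size of a change. Ccl2 was closest to Camsap2 (r = 0.975, 1.541 to 44.82 CPM) and Sdc1, which encodes syndecan (r = 0.956, 24.01 to 70.99 CPM). For Ccl6 these were Pycard, the inflammasome adaptor (r = 0.984, 33.99 CPM in AX 6 to 300.6 CPM in NC 2), and N4bp2l1 (r = 0.980). For Ccl9 they were Dock2, a leukocyte migration factor (r = 0.992, 30.08 CPM in AX 6 to 100.5 CPM in AX 9), and Rap1b, a small GTPase (r = 0.986).

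The remaining ligands had less close companions. Ccl5 was closest to Scd1, a fatty acid desaturase (r = 0.919), and Ctla4, a T cell checkpoint receptor (r = 0.895, 5.84 CPM in AX 10 to 32.06 CPM in AX 8). Ccl7 was closest to Npepl1 (r = 0.906) and Kit, the receptor of mast cells and progenitors (r = 0.890). Ccl12 was closest to Il1rl1, the receptor of interleukin-33 (r = 0.848), and Acbd6 (r = 0.834), Ccl17 to Vezt (r = 0.913) and Sel1l (r = 0.873), and Ccl22 to Tbc1d4 (r = 0.943) and Tmem134 (r = 0.927). With 10 libraries and 7691 genes the highest r of any gene is a high value by selection, so these are a description.

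Of 9 CC receptor genes examined, 3 passed the filter, and 0 of them passed the test. Ccr2, the receptor of Ccl2, Ccl7 and Ccl12 on inflammatory monocytes, had 11.88, 163.8, 57.85, 242.8 and 231.5 CPM in AX 6 to AX 10, against 21.42, 167.2, 127.1, 211.4 and 172.5 CPM in NC 1 to NC 5. It was lowest in AX 6 and NC 1, as were Ccl6 and Ccl9, and averaged 141.6 ± 103.3 CPM in AX and 139.9 ± 72.66 CPM in NC (log2 fold change 0.02, SE 0.72).

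Ccr1, the receptor of Ccl3, Ccl5, Ccl6 and Ccl9, averaged 496.9 ± 123.1 CPM in AX and 495.7 ± 193.1 CPM in NC, and NC 1 was its lowest library at 259.5 CPM. Ccr7, which guides dendritic and T cells to lymph nodes, averaged 34.26 ± 16.78 CPM in AX and 34.12 ± 8.01 CPM in NC. The atypical receptor Ccrl2, which does not signal to migration, averaged 112.8 ± 70.75 CPM in AX and 128.5 ± 42.62 CPM in NC, and AX 6 was its highest library at 234.2 CPM. The median log2 fold change of the 3 receptors was 0.005.

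Of 13 other CC ligands, 2 passed the filter and 0 passed the test. Ccl24, an attractant of eosinophils through CCR3, had 9.45, 14.94, 10.65, 17.85 and 10.46 CPM in AX 6 to AX 10, against 19.78, 16.97, 14.23, 15.47 and 18.79 CPM in NC 1 to NC 5. It was below every NC library in 3 of 5 AX libraries, with a log2 fold change of -0.43 (SE 0.22, 95% interval -0.92 to 0.06), an unadjusted p of 0.0825 and an adjusted p of 0.9999 in edgeR. Ccl25, the CCR9 ligand of gut and thymus, averaged 2.503 ± 1.32 CPM in AX and 2.41 ± 0.63 CPM in NC. Ccl11, another CCR3 ligand, had 56, 2, 15, 11 and 2 counts in AX 6 to AX 10, against 96, 0, 2, 0 and 0 counts in NC 1 to NC 5, with its highest values in the 2 libraries richest in mesothelial and stromal markers. Ccl1, Ccl19, Ccl21a, Ccl21b, Ccl21c and Ccl26 had 0 counts in every library, where 3 counts correspond to 0.192 to 0.313 CPM. Ccl21a and Ccl21c each fill several rows of near-identical copies. The counting tool, and so its handling of reads that match several copies, is not known. For Ccl21a, Ccl21b and Ccl21c, 0 counts therefore need not mean absence.

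Genes that act with the ligands were examined as lists. Of 24 genes of CC receptor signalling, 0 passed the test, with 7 positive and 17 negative estimates and a median log2 fold change of -0.05. The smallest p in this list belonged to Rgs2, a brake on G protein signalling, with 16.19 ± 5.62 CPM in AX and 11.06 ± 3.88 CPM in NC. Arrb1, an arrestin that desensitises receptors, came next, averaging 7.24 ± 5.45 CPM in AX and 23.40 ± 25.89 CPM in NC. Of 20 regulators of CC ligand transcription and messenger RNA decay, 0 passed, with 7 positive and 13 negative estimates and a median of -0.03. Fos, an AP-1 subunit, averaged 342.3 ± 431.4 CPM in AX and 159.9 ± 72.90 CPM in NC, and Irf3, an interferon regulatory factor downstream of TBK1, averaged 26.49 ± 5.04 CPM in AX and 33.71 ± 7.24 CPM in NC.

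The marker lists were set beside the ligands library by library. The libraries lowest in Ccl6 and Ccl9 were those highest in mesothelial, stromal and gut epithelial markers. NC 4, next in gut epithelial markers at 460.2 CPM, had 938.8 CPM of Ccl6 and 1504 CPM of Ccl9. Stromal markers summed to 3299 CPM in AX 6 and 1497 CPM in NC 1, against 296.0 to 878.1 CPM in the others. Monocyte and small macrophage markers, a list that includes Ccr2, summed to 4449, 8161, 5057, 8572 and 6069 CPM in AX 6 to AX 10, against 5115, 10459, 7241, 9390 and 6379 CPM in NC 1 to NC 5. This sum, much of it Hp on average, was lowest in AX 6, AX 8 and NC 1. Ccl6 and Ccl9 were lowest in AX 6 and NC 1. The part of the cell mixture in these levels was not tested.

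Between the groups, 12 of 12 tested mesothelial genes and 13 of 13 tested stromal genes had positive estimates, with medians of 1.06 and 0.55, and 10 of 10 tested gut epithelial genes had negative ones, with a median of -1.004. The neutrophil list, 19 symbols in 20 rows, had 4 positive and 16 negative estimates (median -0.20). Of the large peritoneal macrophage list 9 were positive and 1 negative (median 0.72). The mesothelial and stromal directions were not kept without AX 6 alone, nor the gut epithelial direction without NC 1 alone. With both libraries left out, the directions were kept, but the mesothelial median was smaller. Without AX 6, 3 mesothelial estimates were positive and 9 negative (median -0.17) and 7 stromal ones positive and 6 negative (median 0.003). Without NC 1, 5 gut epithelial estimates were positive and 5 negative (median -0.03). Without both libraries 11 of 12 mesothelial (median 0.307) and 12 of 12 stromal estimates (median 0.454) were positive. Of the gut epithelial estimates 9 of 9 were negative (median -1.734). No gene of these lists passed the test. Without both AX 6 and NC 1, the log2 fold change was 0.01 for Ccl6, 0.09 for Ccl12 and 0.02 for Ccl17, and 0 of the 10 ligands passed.

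**Figure D5:**
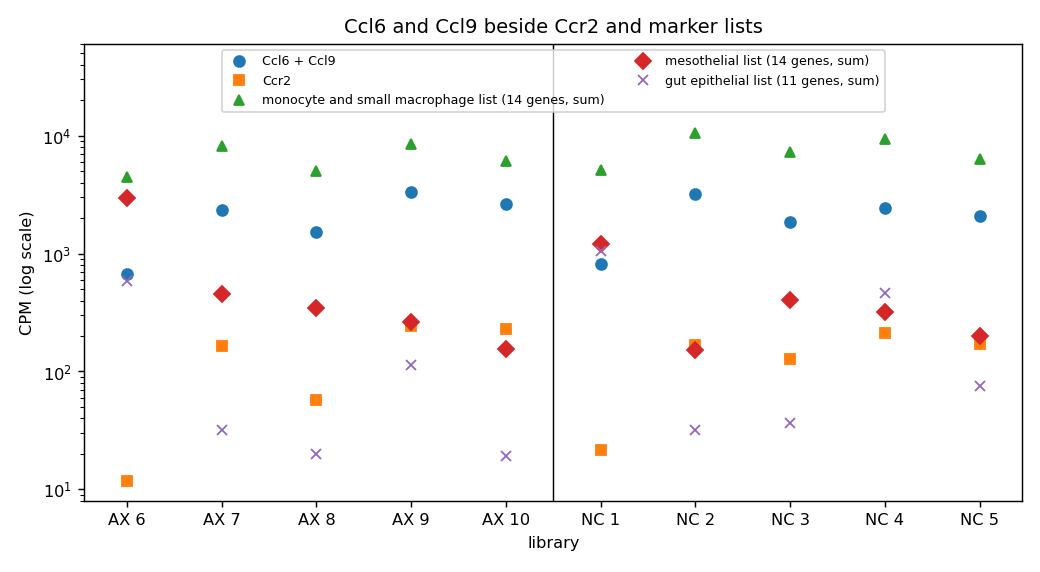
Summed level of Ccl6 and Ccl9, the level of Ccr2, and the summed levels of monocyte and small macrophage, mesothelial and gut epithelial marker lists in each library, in CPM on a log axis, with AX on the left of the line and NC on the right. Ccl6 with Ccl9 and Ccr2 are lowest in AX 6 and NC 1, the libraries with the highest mesothelial and gut epithelial sums. Much of the monocyte and small macrophage sum is Hp on average.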

How the data were processed

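Poly(A) RNA of peritoneal lavage cells was extracted with MJzol, and the VAHTS Universal V6 kit was used for the libraries, per the labels' protocols. Reads were aligned with HISAT2 2.0.4 to mm10, per the submitters' processing notes. The sources used here do not name the counting tool, the annotation release or the strand setting. The counts as deposited are unnormalised whole numbers. The FPKM values deposited by the authors are the counts scaled by gene length and library total, with lengths that agreed between libraries within 7.81e-05 over 10527 genes. That length equalled the sum of distinct exons of GENCODE M21 within 1 base for 65.8% of 10512 genes, and the merged exon length for 7.46%.

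The main test was edgeR's quasi-likelihood F test (edgeR 4.0.16 in R 4.3.3), two-sided and without covariates, of AX against NC over the 12264 genes kept by filterByExpr, with TMM scaling and Benjamini-Hochberg adjustment at 0.05. SE and 95% intervals derive from the F statistic. Correlations used 100000 permutations. Alternatives were DESeq2 1.42.0, limma-voom (limma 3.58.1) with and without quality weights, other scalings and filters, limma on log2(FPKM + 1) and log2(FPKM + 0.1) for genes at 1 FPKM or more, marker lists as covariates, and leaving out libraries. Python 3.11.15, scipy 1.17.1, Biopython 1.88 and matplotlib 3.10.9 were used for correlations, alignments and plots. Gene-level steps were tested on simulated data.

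No pair of libraries agreed within sampling noise (42.5 to 337 chi-square units per degree of freedom), and all 10 were kept. The labels name no batch. No molecular identifiers are described, so the limit of 3 counts covers counting error only. The members and lists were chosen with earlier results of these data known. All members are given. Among the other CC ligands and receptors examined each gene passing the filter could be named, in other lists the 2 with the smallest unadjusted p, and beside each member the 2 genes with the highest r at a mean log2 CPM of 3 or more, without predicted genes, receptor segments or Rik clones. Ccl11, Ccr4 and the ligands at 0 counts were named after their values were seen. Grk2 of the signalling list is listed as Adrbk1. Promoters of 6 members were found in the RefSeq table (not Ccl2, Ccl4, Ccl5 or Ccl7). A receptor gene is not reported here.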

Additional observations from a re-analysis of the deposited data

Results flagged for a closer look

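In groups of 5 libraries, a level was singled out when 1 library lay far from the nearest of the other 4 relative to the whole range of its group. In normally distributed values chance alone does this in about 1 in 20 groups, and 3 of the 32 groups examined were singled out in CPM. Ccl7 stood at 2154 CPM in AX 8, where the other AX libraries had 316.9 to 714.6 CPM. Ccl22 stood at 122.2 CPM in the same library, where the other AX libraries had 26.62 to 49.56 CPM. The atypical receptor Ccrl2 stood at 234.2 CPM in AX 6, where the other AX libraries had 61.49 to 102.8 CPM. CPM are skewed, and on the log2 scale, a comparison chosen after seeing the data, none of these 3 was singled out. There 2 low libraries were, NC 1 for Ccr2 (21.42 CPM) and NC 3 for Ccl17 (2.23 CPM).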

How the results depend on the processing

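No ligand passed the threshold under any of the 24 alternatives. Over all genes the count was 0 in each, apart from leaving out NC 3, where it was 1 (Rnf24, log2 fold change -5.75, adjusted p = 0.0174 by edgeR), so leaving out single libraries gave 0 to 1. Genes at an unadjusted p under 0.05 numbered 193 with DESeq2 and 132 with limma-voom, against 113 with edgeR. Over all alternatives they numbered 79 (stricter filter) to 462 (mesothelial list as covariate), with 313 without a filter, 380 with quality weights and 319 without AX 6 and NC 1, and no ligand was among them. No scaling moved the median of all genes by over 0.1. Estimates near 0 changed sign as follows, on the log2 scale. Total counts only gave -0.041 for Ccl7, -0.054 for Ccl25 and -0.105 for Ccr7, and upper quartile scaling -0.009 for Ccr7. Limma-voom gave -0.097 for Ccl7, -0.016 for Ccl9, -0.100 for Ccl25, -0.273 for Ccr2 and -0.115 for Ccr7. With quality weights the values were 0.102 for Ccl6, -0.043 for Ccl7, 0.076 for Ccl12, -0.413 for Ccl25 and -0.256 for Ccr7. Limma on log2(FPKM + 1) gave -0.156 for Ccl7, -0.071 for Ccl9, -0.002 for Ccr1, -0.199 for Ccr2 and -0.147 for Ccr7, and with a pseudocount of 0.1 Ccr2 was at -0.315 and Ccr7 at -0.158, with the same values for Ccl7, Ccl9 and Ccr1. The neutrophil list as covariate gave 0.033 for Ccl3, 0.162 for Ccl6, -0.086 for Ccl7, -0.292 for Ccl25 and -0.086 for Ccr7. The macrophage list gave 0.077 for Ccl3, -0.176 for Ccl9, -0.304 for Ccr2 and -0.015 for Ccr7. The mesothelial list gave 0.340 for Ccl6, -0.021 for Ccl7 and -0.239 for Ccr7. Without AX 6 and NC 1 the values were 0.008 for Ccl6, 0.085 for Ccl12, 0.021 for Ccl17, -0.053 for Ccr1 and -0.182 for Ccr7. Leaving out each library in turn gave -0.378 to 0.240 for Ccl3, -0.293 to 0.266 for Ccl6, -0.635 to 0.278 for Ccl7, -0.187 to 0.229 for Ccl9, -0.455 to 0.061 for Ccl12, -0.279 to 0.164 for Ccl17, -0.203 to 0.222 for Ccl25, -0.160 to 0.237 for Ccr1, -0.269 to 0.314 for Ccr2 and -0.286 to 0.183 for Ccr7. Ccl2, Ccl4, Ccl5 and Ccl22 kept their sign under all 24 alternatives, at -0.030 or below for Ccl2, -0.028 or below for Ccl4, 0.024 or above for Ccl5 and -0.033 or below for Ccl22. The cause of these changes was not tested.

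The 4 correlated pairs became 2 with total counts only, Ccl3 with Ccl4 and Ccl6 with Ccl9. They became 2 others without the 2 libraries farthest from the median (both negative) and 0 without AX 6 and NC 1. Without single libraries there were 2 to 7 (2 without AX 10, 7 without AX 9). With 8 libraries fewer arrangements are possible. The correlations without single libraries or without AX 6 and NC 1, the marker lists without single libraries, and the merged exon lengths, were chosen after seeing the data. No paired analysis was possible because AX and NC share no replicate numbers. Depth limits Ccl17 most, at 14 to 84 counts per library.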
